A study of Homo sapiens with 4 samples.

Results

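MEG3 and its neighbours belong to the imprinted DLK1-DIO3 domain of human chromosome 14. The 5 genes described here, MEG3, MEG8, MEG9, DLK1 and RTL1, were taken by gene name from the 58735 genes of the deposited FPKM files, and each name matched 1 gene. They were chosen by the FPKM of MEG3 in Bru and Control, which had been seen to move in opposite directions in the lines, so the Bru values of MEG3 are given as a description.

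RNA of U251 and U87, both established human glioblastoma cell lines, was sequenced from bulk cultures. Each line gave 1 Control culture and 1 culture kept for 48 h in Bru. Bru was given at its IC50, as the paper states. The concentration in these libraries is not given, so whether both lines had the same dose is not known. In its viability time course, the paper used a higher concentration of Bru for U251 than for U87. A difference between the lines in their response to Bru can therefore not be told apart from a difference in dose. What the Control cells of these libraries received is not given in the sources used here. Bru is brusatol, a plant quassinoid known to lower NRF2 protein and to slow protein synthesis. Each condition had 1 library, so that no difference among the 4 libraries has a replicate check and no p-value is given. Both are long-cultured lines rather than tumour tissue.

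In an imprinted domain, the copy inherited from 1 parent is active and the other is silent. In the DLK1-DIO3 domain, the protein genes DLK1, RTL1 and DIO3 are read from the paternal copy, whereas the noncoding RNAs MEG3, MEG8 and MEG9 and large arrays of small nucleolar RNAs (snoRNAs) and microRNAs (miRNAs) are read from the maternal copy, under the control of a methylated region between DLK1 and MEG3. MEG3 is a long noncoding RNA known for slowing cell growth, for binding Polycomb repressive complex 2, and for being silenced by DNA methylation in many gliomas and pituitary tumours. These files do not separate the parental copies and hold no methylation.

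The promoters of MEG3 and DIO3 are shown because these were the genes of the domain that had 0 reads in U87 Control and more than 3 in U87 Bru. Of the 5 genes, 3 had an entry in the RefSeq promoter table of GRCh38.p14 (MEG3, RTL1 and MEG9). MEG3 had 3 entries, and the window shown is the one with the lowest start coordinate. Each window runs from 250 bases before the start to 50 bases after it, and the capitals mark the letters TGACGTCA (the cyclic AMP response element), TATAAA (the TATA box) and CCAAT, searched on both strands. The MEG3 window lies on the plus strand at chr14:100825858-100826157, and the DIO3 window on the plus strand at chr14:101561245-101561544.
MEG3: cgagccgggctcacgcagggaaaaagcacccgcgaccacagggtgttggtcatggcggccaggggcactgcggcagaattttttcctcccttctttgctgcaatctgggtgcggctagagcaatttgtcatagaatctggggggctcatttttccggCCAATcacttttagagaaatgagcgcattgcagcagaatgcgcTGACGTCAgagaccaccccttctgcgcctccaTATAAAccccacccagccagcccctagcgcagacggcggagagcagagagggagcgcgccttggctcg
DIO3: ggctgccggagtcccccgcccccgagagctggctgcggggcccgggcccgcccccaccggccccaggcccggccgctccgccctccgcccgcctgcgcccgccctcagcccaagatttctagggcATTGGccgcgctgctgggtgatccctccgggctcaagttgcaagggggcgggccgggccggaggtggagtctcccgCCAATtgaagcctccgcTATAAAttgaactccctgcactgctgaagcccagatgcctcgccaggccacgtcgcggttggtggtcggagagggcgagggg

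The MEG3 window held 1 match to each motif, with the cyclic AMP response element 50 bases, the TATA box 18 bases and CCAAT 93 bases before the start. The DIO3 window held a TATA box 32 bases before the start and CCAAT at 125 bases, on the other strand, and at 49 bases. It held no TGACGTCA, and CCAAT and TATAAA stood in both windows. Of 35116 windows of this length in the table, 1.85% held TGACGTCA, 11.5% TATAAA and 34.6% CCAAT. The MEG3 window had a GC content of 59% and 19 CpG, the DIO3 window 73% and 28 CpG. A match of letters is a description and does not show that a factor was bound.

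The maternally read array between MEG3 and MEG9 is represented by 4 C/D box snoRNAs, a class of small RNAs that usually guides methylation of other RNAs. They are shown because they were the snoRNA rows of the domain with the most reads in U251 Control. Sequences are those of GENCODE 29 on GRCh38, written as DNA, with the C box TGATGA and the D box CTGA nearest to the ends in capitals.
SNORD113-3: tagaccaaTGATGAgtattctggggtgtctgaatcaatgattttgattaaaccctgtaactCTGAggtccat
SNORD114-1: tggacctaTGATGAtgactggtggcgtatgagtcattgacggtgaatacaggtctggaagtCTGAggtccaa
SNORD114-3: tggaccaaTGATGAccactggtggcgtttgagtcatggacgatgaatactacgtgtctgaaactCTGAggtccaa
SNORD114-10: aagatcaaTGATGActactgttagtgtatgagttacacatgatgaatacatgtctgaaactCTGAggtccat

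These 4 lie on the plus strand at chr14:100929919-100929990, chr14:100949833-100949904, chr14:100953349-100953423 and chr14:100967052-100967123. Both boxes are common here. Of the 47 snoRNA rows of the domain, 35 held TGATGA and 44 held CTGA.

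The deposited unit was FPKM, the fragments on a gene scaled to the length of its exons and to the size of the library. Whole fragments, called reads here, could be recovered for all values above 0. U251 gave 21453561 reads on genes for Control and 17847910 for Bru, and U87 gave 18260975 and 17083896. Intervals are exact 95% intervals of counting error only, and 3 reads are taken as the floor under which no fold is given. Of 8 glial and glioma markers, 5 reached a mean FPKM of 1, with median log2 ratios of Bru to Control on FPKM + 0.1 of -0.50 in U251, where NES (-1.30) and FABP7 (-1.97) were below -1, and -0.08 in U87, where NES (-1.23) was. GFAP, OLIG2 and S100B did not reach it. VIM and CD44 were high in all 4 libraries, whereas SOX2, a stem cell factor of glioma, had 6790 (Control) and 4248 (Bru) reads in U251 but 0 and 2 in U87. Between the untreated lines, 3 of the 5 markers were below -1 in U87 relative to U251, with a median over the 5 of -6.12. The U87 ratios of these 3 therefore rest on far lower levels than those of U251. Of 8 markers of other cell types (leukocytes, endothelium, epithelium, neurons), 0 reached a mean FPKM of 1, and their summed FPKM lay between 0.469 and 1.81 per library.

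MEG3 (ENSG00000214548) is annotated on the plus strand of chromosome 14 from 100779410 to 100861031 and has 23224 exonic bases. In U251 it had 1964 reads as Control and 590 after Bru, and in U87 it had 0 as Control and 38 after Bru. The corresponding FPKM were 4.03 (3.86 to 4.21), 1.37 (1.26 to 1.49), 0 (up to 0.00879) and 0.0940 (0.0665 to 0.129). The level was therefore highest in untreated U251 and lower there after Bru, and U87 had a trace of MEG3 after Bru and none detectable before it. The counting intervals of the 4 libraries did not overlap.

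In U251, the reads of MEG3 in Bru stood at 34.0% of those in Control after scaling to the library sizes, a log2 ratio of -1.56 (-1.69 to -1.42). On the log2(FPKM + 0.1) scale, which is used for counts over all genes, the log2 ratio was -1.49. On that scale, 5.44% of the 12949 genes that reached a mean FPKM of 1 were below -1 in U251 and 3.36% above 1, and MEG3 was number 250 from the lowest. Of the 5 genes, MEG3 alone reached that mean FPKM, through its level in U251. In bulk RNA, fewer cells with MEG3 and less MEG3 per cell cannot be told apart.

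In U87, the reads of MEG3 went from 0 to 38, at least 13.1-fold higher with Control set to the floor of 3 reads. The exact 95% interval, which also takes in the counting error of the 38 reads, has a lower limit of 3.35 on the log2 scale and so reaches below that value. The log2 ratio on FPKM + 0.1 was 0.96, just under the 2-fold cutoff, and this value depends on the added constant because MEG3 was at 0 in Control. In this line 1.92% of genes were above 1 and 1.41% below -1, and MEG3 was number 267 from the highest. Among 34347 genes with 0 reads in U87 Control, 7 (0.0204%), MEG3 included, had as many reads as MEG3 or more in U87 Bru. In the reverse direction 0 of 33271 genes with 0 reads in U87 Bru had that many in U87 Control, as a count of reads in single libraries and with no test. Both totals include the 26864 genes with 0 reads in all 4 libraries, so the share of 0.0204% is lower than among detected genes. A threshold in reads also favours long rows such as that of MEG3.

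**Figure D1:**
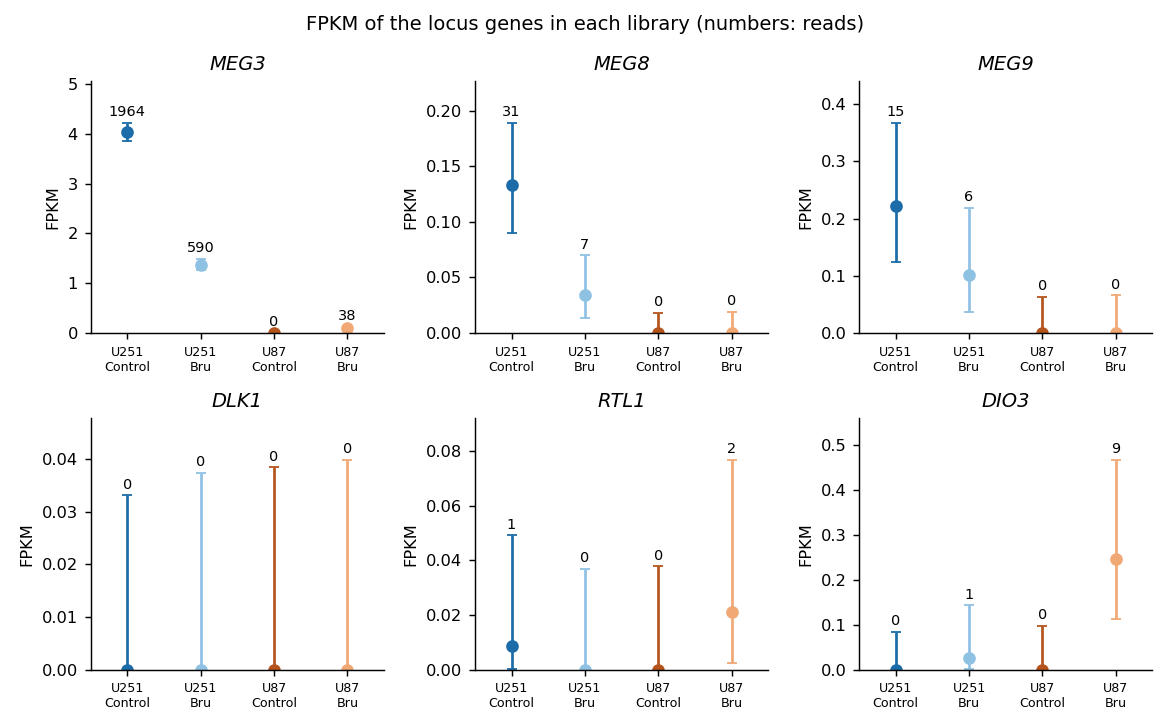
FPKM of the 5 genes and of DIO3 in each of the 4 libraries, each panel on its own linear axis from 0. Points are single libraries, bars are exact 95% counting intervals, and the numbers are reads. MEG3 is at 1964 and 590 reads for Control and Bru of U251 and at 0 and 38 for those of U87, and DLK1 was at 0 in all 4.

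The difference between the 2 log2 ratios of MEG3, U87 minus U251, was 2.45. A ratio below 0 in U251 was found for 52.1% of genes and one above 0 in U87 for 42.3%. Both held for 1799 genes (13.9%), and a ratio below -1 in U251 together with one above 1 in U87 for 37 genes (0.286%). MEG3 belonged to the former and not to the latter. By this difference it was number 108 from the highest of 12949. Since the rule that chose MEG3 used these contrasts, the ranks describe it and support nothing further.

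Between the untreated lines, MEG3 was at least 564-fold lower in U87 than in U251 with U87 set to the floor of 3 reads. The exact interval, which takes in the error of both libraries, ended at a log2 ratio of -8.84, or 0.218% of U251 Control, and the log2 ratio on FPKM + 0.1 was -5.37. On that scale 16% of genes were below -1 and 14.5% above 1 in U87 Control relative to U251 Control. MEG3 was number 173 from the lowest. Among 7629 rows annotated as long intergenic noncoding RNAs, it ranked number 75 by FPKM in U251 Control, number 238 in U251 Bru and number 1697 in U87 Bru.

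MEG3 was 1 of 56 genes with 500 or more reads in U251 Control and 0 reads in U87 Control, which is 0.737% of the 7601 genes with that many reads in U251 Control. This group was formed after the values of MEG3 were seen. The other 55 genes had between 0 and 4 reads in U87 Bru, and 40 of them had 0. They summed to 25 reads in U87 Bru against 82734 in U251 Control, or 3.02 per 10000, whereas MEG3 had 193 per 10000. Of these 55 genes, 10 had more reads than MEG3 in U251 Control. Since MEG3 was chosen by these values, they describe it and support nothing further.

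**Figure D2:**
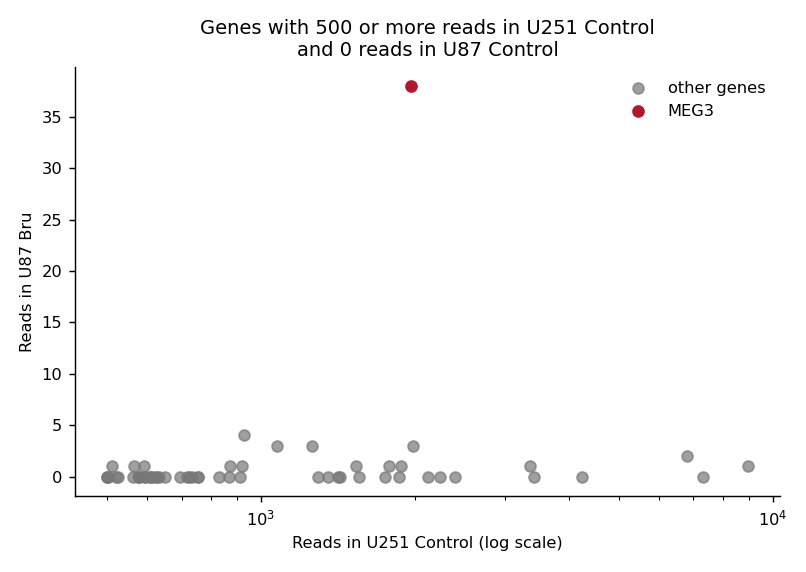
Reads in U87 Bru (linear axis) against reads in U251 Control (log axis) for the 56 genes with 500 or more reads in U251 Control and 0 reads in U87 Control. Each point is a gene. MEG3, in red, had 38 reads in U87 Bru, and the other 55 genes had 0 to 4.

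The annotation of MEG3 bears on these values. The gene row joins 48 transcripts of 461 to 12990 bases, with a median of 1621.5, so that an FPKM over all 23224 exonic bases is lower than one over a typical transcript. The RefSeq start that anchors the promoter window is at 100826108, 46.7 kb after the start of the row, and 26 of the 48 transcripts start within 500 bases of it while 1 starts more than 10 kb upstream. Other annotated genes share 600 exonic bases (2.58%) with MEG3, 1 of them on the other strand. The per-gene reads cannot tell which transcript or start the reads in either line came from.

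The other maternally read RNAs were scarce, and they were detected only in the U251 libraries. MEG8 (ENSG00000225746, plus strand, 100894770 to 101038859) hosts much of the snoRNA array. Its reads in U251 were 31 for Control and 7 for Bru, and it had 0 in both U87 libraries, with FPKM of 0.133 (0.0904 to 0.189) and 0.0340 (0.0137 to 0.0701) in U251 and limits of up to 0.0184 and 0.0191 in U87. Its counting intervals in U251 did not overlap. The reads in Bru stood at 25.6% of Control (9.50% to 59.2%), a log2 ratio of -1.97 (-3.40 to -0.76).

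MEG9 (ENSG00000223403, plus strand, 101064151 to 101072937) overlaps the far end of the miRNA array. Its reads in U251 were 15 for Control and 6 for Bru, with 0 in both U87 libraries and with FPKM of 0.223 (0.125 to 0.367) and 0.101 (0.0370 to 0.219) in U251. Here the intervals overlapped. Bru stood at 45.3% of Control (14.4% to 123%), a log2 ratio of -1.14 (-2.80 to 0.30), so that a difference in MEG9 alone was not detectable at this depth.

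MEG8 and MEG9 were both below -1 in U251 on the ratio of reads, as MEG3 was. Of the 15678 genes with 20 or more reads in the U251 libraries, 6.87% were below -1, and of the 1707 with 20 to 40 reads, as MEG8 and MEG9 had, 15.1% were. Summed after their values were seen, MEG8 and MEG9 had 46 reads in Control and 13 in Bru, 32.0% of Control (15.9% to 60.2%), close to the 34.0% of MEG3. Against MEG3 in the same libraries, MEG8 stood at 1.58 reads per 100 MEG3 reads in Control and 1.19 in Bru, and MEG9 at 0.764 and 1.02. The change relative to MEG3 was -0.41 (-1.84 to 0.80) on the log2 scale for MEG8 and 0.41 (-1.24 to 1.86) for MEG9, and both intervals contain 0 and also changes of more than 2-fold. Exons shared with other genes cover 1889 bases (17.0%) of MEG8 and 80 bases (2.49%) of MEG9.

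In U87 neither gene showed reads beside the 38 of MEG3. At the U251 Control proportion, 38 reads of MEG3 would come with 0.600 reads of MEG8 and 0.290 of MEG9. The 0 reads of both genes in U87 Bru therefore cannot show whether they moved with MEG3 there. Between the untreated lines, MEG8 was at least 8.90-fold and MEG9 at least 4.31-fold lower in U87 set to the floor of 3 reads, and the exact intervals ended at 14.7% and 32.4% of U251 Control. By comparison, 3.16% of the 14822 genes with 15 or more reads in U251 Control had 0 reads in U87 Control.

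The small RNAs of the domain gave few reads. The 47 snoRNA rows of the domain, 46 of them within MEG8, summed to 18 reads for U251 Control and 2 for U251 Bru, 12.6% of Control (1.41% to 52.5%), and 0 in both U87 libraries. Of these rows, 7 had a read. SNORD113-3, SNORD114-1 and SNORD114-3, with the sequences above, each had 4 reads, all from U251 Control, and SNORD114-10 had 4 from U251 Control and 1 from U251 Bru. The 54 miRNA rows of the domain had 2 reads in each U251 library and 0 in U87. All rows on the plus strand after MEG3 up to MEG9, 102 in number and summed after their values were seen, came to 66 reads for Control and 17 for Bru of U251, 29.1% of Control (16.0% to 50.3%), and 0 in both U87 libraries. Reads over a snoRNA within an intron can come from the unspliced host RNA, which the per-gene values do not separate.

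The paternally read protein genes had few or no reads in either line. DLK1 (ENSG00000185559, plus strand, 100725705 to 100738224), a membrane protein of the Notch ligand family that keeps precursor cells from differentiating, had 0 reads in all 4 libraries out of 74646342. The upper limits of its FPKM were 0.0331 and 0.0375 for Control and Bru of U251 and 0.0384 and 0.0399 for those of U87. RTL1 (ENSG00000254656, minus strand, 100879753 to 100903722), a gene derived from a retrotransposon and needed in the placenta, had 1 read in U251 Control, 2 in U87 Bru and 0 in the others. All were at or under the floor, so no fold is given. Exons of RTL1 share 480 bases (8.89%) with 5 miRNA rows of the opposite strand, and the library kit does not mark strand.

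DIO3 (ENSG00000197406, plus strand, 101561351 to 101563452), which inactivates thyroid hormone, ends the domain and is the remaining protein gene in it. Both Control libraries had 0 reads of it, U251 Bru had 1 and U87 Bru had 9, an FPKM of 0.246 (0.112 to 0.467). With Control set to the floor of 3 reads, it was at least 3.11-fold higher in Bru of U87, and the exact interval, which takes in the error of the 9 reads too, reached down to 1.03 on the log2 scale. Of the genes with 0 reads in U87 Control, 59 (0.172%), DIO3 included, had 9 or more reads in U87 Bru. The reverse direction gave 11 of 33271 (0.0331%). Both shares again count the genes with 0 reads in all 4 libraries, which lowers them. DIO3 thus had reads in the same library as MEG3, while DLK1, MEG8 and MEG9 had 0 there. DIO3OS and MIR381HG, 2 further noncoding RNAs of the domain, had 0 reads in all 4 libraries.

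Between the end of BEGAIN and the start of PPP2R5C, a span of 1174 kb, the files listed 131 rows, of which 110 were at 0 in all libraries. MEG3 held 1964 of the 2252 reads on this span in U251 Control and 590 of 948 in U251 Bru. In U87, 147 of 158 reads in Control and 211 of 276 in Bru lay on AL355032.1, a processed pseudogene near the far end. Its reads in U251 went from 212 to 331, so that it did not share the lower level of MEG3 after Bru, and a processed pseudogene can share reads with its parent gene. LINC00239 (8, 5, 2 and 4 reads) and LINC00524 (0, 0, 5 and 9 reads) were the other rows with 10 or more reads in all.

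Outside the domain, 17 of 20 listed flanking genes passed a mean FPKM of 1, with a median log2 ratio on FPKM + 0.1 of -0.09 in U251 and 0.01 in U87, beside -0.03 and -0.04 over all genes. In U251, 3 of them were below -1, where 5.44% of all genes were, and 0 above 1. These were SLC25A29, a mitochondrial carrier of basic amino acids (-1.09), ANKRD9, a ubiquitin ligase adaptor (-1.09), and EVL, an actin regulator (-1.03). In U87, 0 of the 17 passed the cutoff in either direction. The nearest flanks, BEGAIN on one side and PPP2R5C, a regulatory subunit of protein phosphatase 2A, on the other, showed ratios of reads of -0.73 (log2, -1.26 to -0.22) and 0.21 (0.13 to 0.30) in U251 and of -0.17 (-0.47 to 0.12) and 0.09 (0.01 to 0.17) in U87. MEG3 thus lay below both in U251 and above both in U87.

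**Figure D3:**
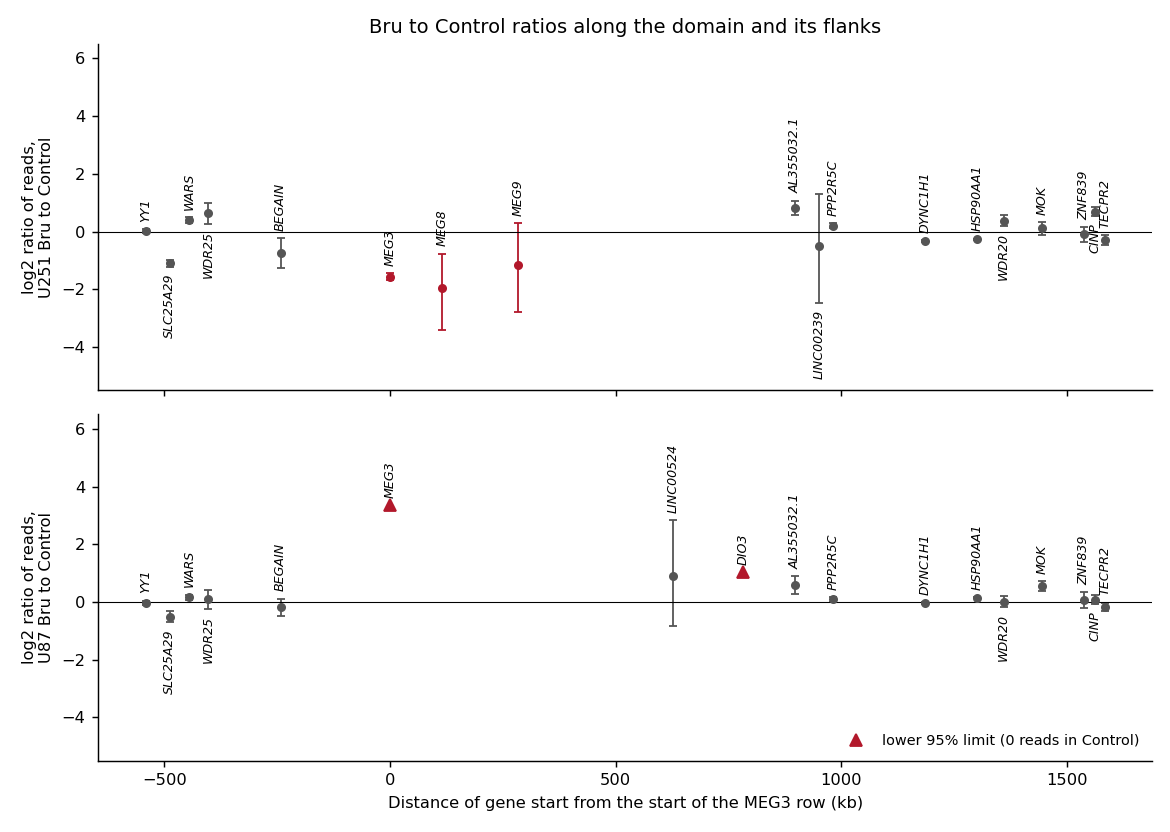
Log2 ratio of reads, Bru to Control, in U251 (top) and U87 (bottom) against the distance in kb from the start of the MEG3 row. Shown are genes of the domain and its nearer flanks with at least 9 reads in the 2 libraries. The outermost flanks are not shown, with U251 ratios of -0.90 (EML1), -1.11 (EVL), -1.12 (ANKRD9), 0.31 (RCOR1) and -0.16 (TRAF3). Bars are 95% counting intervals and triangles mark lower limits where Control had 0 reads. In U251, MEG3 (-1.56), MEG8 (-1.97) and MEG9 (-1.14) lie below 0, and in U87 the lower limits of MEG3 (3.35) and DIO3 (1.03) lie above the flanking genes shown.

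Other imprinted genes were read from lists of known genes. Of those listed as read from the paternal copy, 27 rows were found and 12 passed the filter, with medians of -0.21 in U251 and -0.07 in U87. MEST, a hydrolase-like growth gene, went from 2314 to 383 reads in U251 (-2.39) and was at 5 and 4 reads in U87. NNAT, a small brain membrane protein, stood at 22 reads in Control and 45 in Bru of U251 (1.12) and at 19 and 37 in U87 (0.93). DIRAS3, a growth-suppressing small GTPase, stood at 0.63 in U251 and -1.21 in U87, the reverse order of signs to MEG3. In U251, MEST was below -1 and NNAT above 1, in U87 DIRAS3 was below -1, and no other of the 12 passed the cutoff.

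Of 16 genes listed as read from the maternal copy, 9 passed the filter, with medians of -0.45 in U251 and -0.35 in U87. Which copy is read in these lines was not measured. TP73, a transcription factor, went from 654 to 236 reads in U251 (-1.25), and PHLDA2 and GRB10, which restrain growth, had values of -0.86 and -0.72 in U251 and -0.38 and -0.48 in U87. In U251 TP73 alone was below -1, and in U87 CPA4, a carboxypeptidase named after its values were seen, was below -1 at -1.01. None of the 9 was above 1 in either line. H19, the imprinted noncoding RNA of chromosome 11, had 0 reads in all libraries.

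**Figure D4:**
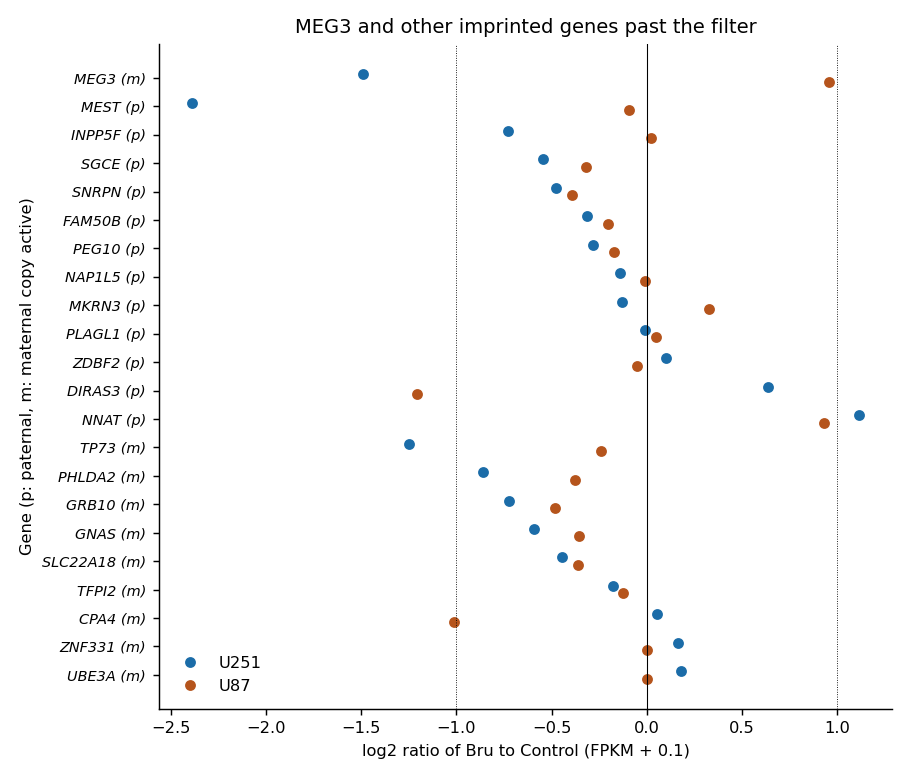
Bru to Control ratio, as log2 on FPKM + 0.1, in U251 (blue) and U87 (orange) for MEG3 and other imprinted genes past the filter. Of these, 12 are listed as paternally (p) and 9 as maternally (m) read. Each point is the ratio of 2 single libraries, and dotted lines mark the 2-fold cutoff. MEG3 lies at -1.49 in U251 and 0.96 in U87, and DIRAS3 at 0.63 and -1.21.

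Genes that write, read or guard DNA methylation at imprints, and those of Polycomb repressive complex 2, were taken as further lists. Of 19 methylation genes, 15 passed the filter and 0 passed the cutoff in either line, with medians of -0.11 in U251 and -0.04 in U87. The methyltransferases DNMT3B and DNMT3A had -0.99 and -0.79 in U251 and -0.13 and -0.19 in U87, and HELLS, a remodeller that aids methylation, had -0.70 and -0.23. All 11 Polycomb genes passed the filter, with medians of -0.26 and -0.01. JARID2, which recruits the complex, was below -1 in U251 (-1.08) and stood at 0.23 in U87. EZH2, its methyltransferase, had -0.63 and -0.22, and PHF19, an accessory subunit, had -0.64 and -0.15.

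Of 12 genes of the cyclic AMP response, whose element lies in the MEG3 promoter window, 11 passed the filter, with medians of -0.05 in both lines. NR4A1, a nuclear receptor quickly induced by this pathway, was below -1 in U251 (-1.16) and stood at 0.39 in U87, and the protein kinase A subunits PRKACA and PRKAR2B had -0.73 and -0.60 in U251 and -0.21 and -0.39 in U87. No other gene of this list passed the cutoff.

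Lists of genes related to DLK1, RTL1 and DIO3 were read in the same way. Of 14 Notch pathway genes, 7 passed the filter, with medians of 0.10 in U251 and 0.22 in U87. DLK2, the paralogue of DLK1, had 55 reads in Control and 112 in Bru of U251 (1.14) and 14 and 19 in U87 (0.40). HES1, a Notch target, went from 120 to 299 reads in U87 (1.34) and stood at 0.05 in U251, and HEY1, another, had -0.75 and 0.19. Of the relatives of RTL1, 7 of 11 passed the filter, all 7 were below 0 in both lines where 52.1% and 56.7% of all genes were, and none passed the cutoff. Their medians were -0.57 and -0.17, and RTL8C, LDOC1 and RTL8B had -0.80, -0.74 and -0.58 in U251 and -0.45, -0.20 and -0.39 in U87. DIO2, the activating counterpart of DIO3, had 0.90 in U251 and 0.14 in U87, and the thyroid hormone receptor THRA had 0.01 and -0.08.

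Of 18 rows of other long noncoding RNAs, 11 passed the filter, with medians of -0.03 in U251 and -0.06 in U87. GAS5, a host of snoRNAs that is itself linked to growth arrest, had 1.39 in U251 and 0.66 in U87, and it was the 1 gene of this list past the cutoff in U251. OIP5-AS1 had -0.62 and -0.50, and CRNDE, an RNA raised in many tumours, had -0.76 and -0.39.

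The 5 genes nearest to MEG3 in pattern were sought among the 12948 other genes past the filter, by the distance between log2(FPKM + 0.1) values centred on their mean over the 4 libraries. EFNB3, a membrane-bound ephrin ligand, was nearest at a distance of 0.231 log2 units, with 328 and 91 reads in Control and Bru of U251 and 1 and 5 in those of U87. TMEM25 followed at 0.317, with 412, 144, 1 and 6 reads in the same order, and then came HES4, a transcription factor of the HES family, at 0.439 with 660, 301, 14 and 24 reads. TSTD1 stood at 0.453 with 118, 55, 1 and 3 reads, and PMEPA1, an inhibitor of TGF-beta signalling, at 0.532 with 4094, 1312, 94 and 107 reads. All 5 had their highest value in U251 Control and their lowest in U87 Control, as MEG3 had, and they were sought by this pattern. In U87 the counting interval of the ratio of reads reached both below and above no change for each of the 5. It was -0.78 to 7.94 (log2) for EFNB3 and -0.17 to 0.66 for PMEPA1, whereas the lower limit of MEG3 was 3.35. Likeness over 4 libraries is a description and was not tested.

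**Figure D5:**
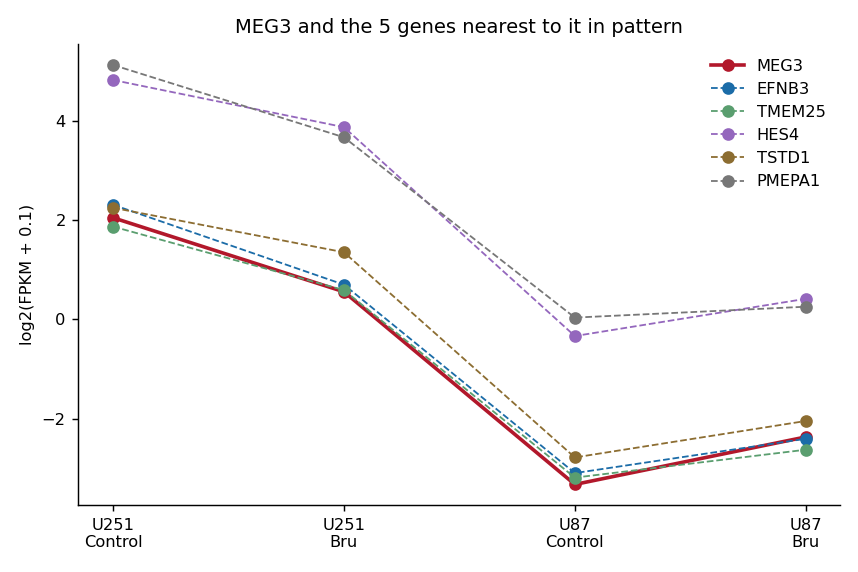
Level as log2(FPKM + 0.1) in each of the 4 libraries for MEG3 (red) and the 5 genes nearest to it in pattern. Points are single libraries, and lines join the points of a gene only to guide the eye. All 6 genes were highest in U251 Control and lowest in U87 Control, and EFNB3 lay nearest to MEG3 at a distance of 0.231. Counting error spans the difference within U87 for each of the 5 nearest genes.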

How the data were processed

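The files that the authors deposited hold 1 FPKM value per gene and library, with gene lengths and coordinates. Per the study's methods, the NEB Next Ultra kit, which does not mark strand, was used for library preparation, with paired-end sequencing. The submitters' processing notes name HISAT2 2.0.5, StringTie 1.3.3b, featureCounts 1.5.0-p3, DESeq2 1.16.1 and the build hg18, without their roles. The coordinates in the files equal those of GENCODE 29 on GRCh38 for 58690 of 58735 genes, and coordinates are given on that build. Whether overlapping genes were counted by strand is not given in the sources used here.

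FPKM times gene length was a whole multiple of 1 step per library for 100% of values above 0, within 0.01 reads, which gave reads per gene and the library size inside the FPKM (20974002, 18533374, 18070193 and 17406238 for U251 Control, U251 Bru, U87 Control and U87 Bru). At this depth 3 reads of MEG3 are an FPKM of 0.00616 to 0.00742. Log2 ratios used FPKM + 0.1, counts over genes used a minimum mean FPKM of 1, and ratios of reads had exact Clopper-Pearson 95% intervals. Intervals and floors cover counting error only, since each condition has 1 library and differences between cultures were not measured. Reads carry no molecular identifiers, so copies made by amplification may be counted and the intervals may be too narrow. The analysis used Python 3.11.15, numpy 2.4.6, scipy 1.17.1, pandas 2.3.3 and matplotlib 3.10.9, and the scripts were tested on simulated data.

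The genes and lists were chosen with earlier results of these data known. Named genes were the 5 members, rows of the domain with at least 10 reads in all plus DIO3 and DIO3OS, the flanks, the 3 genes of each list with the largest absolute changes averaged over the lines, genes needed as a reference level, and the 5 genes nearest to MEG3. Some genes and list results that would follow from it are left out. Alternatives were other pseudocounts, other filters on FPKM, and the authors' FPKM rescaled to TPM, to the 75th percentile, to total reads or to a median ratio of 0.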

Additional observations from a re-analysis of the deposited data

Results flagged for a closer look

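Of 46 named genes examined, 6 had log2 ratios of Bru to Control whose counting intervals lay on opposite sides of 0 in the lines. The 46 were chosen partly for large changes, and MEG3 and the 5 genes nearest to it for their pattern. The share of all genes under this interval rule was not taken, so the count describes the 46 only. Without intervals, 13.9% of all genes past the filter were lower in U251 Bru and higher in U87 Bru. With 1 library per condition, the difference between the lines was not tested in any of the 6. The difference, U87 minus U251, was 2.45 for MEG3. It was 3.65 for the stress cytokine GDF15 (-3.34 in U251, 0.31 in U87). It was 2.13 for the cell cycle inhibitor CDKN1A (-1.48 and 0.66) and 1.57 for BBC3, which promotes cell death (-1.14 and 0.43). It was 1.54 for NR4A1 of the cyclic AMP response. It was -1.84 for the imprinted gene DIRAS3, the single one of the 6 that was higher after Bru in U251 and lower in U87.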

How the results depend on the processing

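No paired analysis was possible because each condition has 1 library. No alternative changed the sign of a MEG3 ratio or of a member's ratio past the 2-fold cutoff. The U251 ratio of MEG3 was -1.09 with a pseudocount of 1. Its U87 ratio was 0.13 with a pseudocount of 1, 3.38 with 0.01, 2.11 as TPM and 3.85 with the median transcript length, an alternative chosen after seeing the data. Its ratio of U87 Control to U251 Control was -2.33, -8.66, -7.24 and -9.18 under the same 4 settings, and -5.30 at the 75th percentile scaling. With 0 reads in U87 Control, these values follow the constant added. The count past the 2-fold cutoff, 1140 in U251 and 432 in U87, was 616 and 190 with a pseudocount of 1, 4963 and 4335 with no filter, 3727 and 2801 at a mean FPKM of 0.1, and 473 and 83 at 5. With reads scaled to their totals, 576 genes were lower and 551 higher in U251, against 705 and 435. For the other members, 57 values stayed within counting error and 15 did not. The 57 include ratios with 0 reads in both libraries, those of DLK1 and the U87 ratios of MEG8 and MEG9. Only the setting with a median ratio of 0 could change these. Of the list medians, 143 stayed within the middle of the spread of their genes and 1 did not. That 1 was Polycomb repressive complex 2 in U251, at -0.18 with reads scaled to their totals. For lists with 7 or fewer genes past the filter the full spread was used, so that staying within it says little. Depth limits MEG8, MEG9, RTL1 and DIO3.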
